A study of Homo sapiens with 18 samples.

Results

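RELA is the transactivating subunit of NF-κB, the transcription factor that carries the inflammatory response to cytokines such as IL-1β. It was compared here between A549 cells exposed to IL-1β plus budesonide and A549 cells exposed to IL-1β alone. A549 is a human lung adenocarcinoma cell line used as a model of airway epithelium, and the cells were wild type. The members are all sites at which the deposited table gives RELA binding for both treatments, joined by site name, and this took 11571 of 11571 sites of 400 bp. The value at each site is the RELA binding intensity with IL-1β plus budesonide minus that with IL-1β, called the RELA difference below. Treatment lasted 1 h, with IL-1β at 1 ng/ml and budesonide, a glucocorticoid, at 300 nM. The series held 18 samples, with 2 libraries for each factor and treatment, and 4 of them enter this comparison.

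Intensities are the authors' pooled values on a scale taken as log2, with a lowest value of 0, so a RELA difference of 1 is a 2-fold difference in signal. Each site has 1 value per treatment and none per library. The spread between the 2 experiments, and the depth, are therefore unknown, no test could be made and no p is given. The word higher or lower describes deposited values only, and the size of 1 serves as a marker of size, not as a significance call. A lower value may come from fewer cells with RELA at a site or from less signal per cell, and ChIP of a bulk culture cannot tell these apart.

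In resting cells NF-κB is held in the cytoplasm by IκB proteins, and IL-1β signalling leads to IκB degradation, nuclear entry and binding to κB elements of DNA. Among its targets are chemokines, cytokines, adhesion molecules and the proteins that later turn the pathway off, including IκBα itself. Glucocorticoids bind the glucocorticoid receptor (GR), which enters the nucleus and binds palindromic glucocorticoid response elements (GREs). Chemokine and cytokine genes are commonly repressed by glucocorticoids, whereas FKBP5, TSC22D3 and DUSP1 are commonly induced. GR libraries were separate samples, but the table lists sites of both factors, so GR intensity is not independent of which sites are in it.

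The sites that carried the largest RELA differences are shown first by their sequence, because sites with more and with less RELA after budesonide differed in the elements they held. Each run is the forward strand of GRCh38, 100 bases from the central 200 bp of the site. Capitals mark both arms of a GRE (AGAACA and TGTTCT, 3 bases apart, with at least 10 of 12 positions matched), a κB match (GGNNTTTCC or GGNNTTCCC on either strand) or an AP-1 match (TGANTCA, a palindrome apart from its central base). Among sites where RELA was higher with budesonide, those assigned to DDIT4, NAMPT and ARRDC2 held a GRE and no κB match, that of ABHD2 held a κB match, and those of JADE1 and GRAMD4 held none of the 3 elements. The GRAMD4 site is built of a tandem repeat. Not all of the 10 largest positive RELA differences are shown. Of the others, the DDR1 and DIP2C sites held a κB match and no GRE, and the DENND3 and RTTN sites held neither.
DDIT4 (chr10:72248935-72249034): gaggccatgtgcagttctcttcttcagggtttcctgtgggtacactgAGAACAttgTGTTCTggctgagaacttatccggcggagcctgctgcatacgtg
NAMPT (chr7:106418290-106418389): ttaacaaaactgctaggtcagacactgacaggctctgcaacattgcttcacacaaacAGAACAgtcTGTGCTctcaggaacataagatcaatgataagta
ARRDC2 (chr19:18020509-18020608): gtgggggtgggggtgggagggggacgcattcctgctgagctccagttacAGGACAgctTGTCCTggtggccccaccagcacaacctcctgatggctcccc
ABHD2 (chr15:89098391-89098490): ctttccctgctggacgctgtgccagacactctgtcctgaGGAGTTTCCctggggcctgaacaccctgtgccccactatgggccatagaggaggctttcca
JADE1 (chr4:128660408-128660507): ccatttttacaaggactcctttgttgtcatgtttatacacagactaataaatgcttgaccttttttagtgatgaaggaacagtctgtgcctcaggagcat
GRAMD4 (chr22:46635117-46635216): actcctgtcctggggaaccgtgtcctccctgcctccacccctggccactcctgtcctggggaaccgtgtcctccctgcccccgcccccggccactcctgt

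Among sites where RELA was lower with budesonide, those of GATB, BASP1 and PFDN4 held AP-1 matches and no κB match, and those of CAMK2N1 and FUT8 held κB matches. None of these 5 held a GRE. Because a GRE match was present at only 12.4% of all sites, 5 sites are too few to set apart from all sites. Not all of the largest negative RELA differences are shown. The sites assigned to AHR and BDKRB1, which are among the others, also held no GRE.
GATB (chr4:152106227-152106326): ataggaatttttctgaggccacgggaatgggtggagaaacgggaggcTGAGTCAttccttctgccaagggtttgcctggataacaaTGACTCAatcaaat
BASP1 (chr5:17128051-17128150): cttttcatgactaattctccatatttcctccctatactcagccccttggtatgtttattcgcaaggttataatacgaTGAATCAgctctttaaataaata
PFDN4 (chr20:54345392-54345491): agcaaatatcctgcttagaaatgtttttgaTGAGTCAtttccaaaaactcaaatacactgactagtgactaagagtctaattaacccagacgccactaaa
CAMK2N1 (chr1:20444260-20444359): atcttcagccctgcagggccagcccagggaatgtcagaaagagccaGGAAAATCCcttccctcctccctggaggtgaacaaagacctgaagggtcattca
FUT8 (chr14:65500653-65500752): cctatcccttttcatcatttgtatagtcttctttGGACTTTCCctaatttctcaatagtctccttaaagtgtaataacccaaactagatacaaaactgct

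RELA intensity was higher with IL-1β plus budesonide at 6143 sites (53.1%) of 11571. The median RELA difference was 0.07, with quartiles at -0.46 and 0.85. It was 1 or more at 2475 sites (percent called 21.4) and -1 or less at 874 sites (percent called 7.55). The distribution was therefore skewed to higher values, while its middle lay close to 0. RELA intensity was at 0 with IL-1β at 236 sites and with both treatments at 77, of which 35 were at 0 in each, so differences at these sites depend on the floor of the scale. Over the 11293 sites above 0 with both treatments, 2303 were higher and 851 lower by 1 or more.

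The sites differed in how much RELA they held. At 5448 sites the intensity was at least 4 with both treatments, and here 33.8% were higher with budesonide, the median RELA difference was -0.23, and 237 sites were higher and 285 lower by 1 or more. Another 1698 sites reached 4 only with IL-1β plus budesonide, from a median of 3.29 with IL-1β, and 860 reached it only with IL-1β, with a median RELA difference of -1.02. At the 3565 sites below 4 with both treatments, 73.0% were higher with budesonide. Higher values were thus concentrated at sites with little RELA after IL-1β, a pattern that the difference itself partly builds in because IL-1β intensity is 1 of its terms.

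How the libraries were put on a common scale is unknown, and it sets the zero of the difference. At the 1000 sites of highest mean RELA intensity the median RELA difference was -0.29 and 22.8% were higher. Within 10 kb of an assembly gap of at least 10 kb lay 42 sites, which had high signal whichever antibody was used. Their median intensities were similar for both factors, at 6.51 for RELA with IL-1β, 6.16 for RELA with both treatments, 6.84 for GR with budesonide and 6.64 for GR with both treatments. Their median RELA difference was -0.38, with quartiles at -0.48 and -0.26, and 4 of them were higher. The strongest RELA sites and these sites thus had medians below 0 of like size, and whether this comes from scaling was not tested. Set to a zero at the gap sites, 3610 sites were higher and 329 lower by 1 or more. With that zero, every RELA difference below gains the size of that median. Medians between -0.38 and 0 then change sign, whereas the order of group medians stays as given. The order of shares can change. Above that zero were 70.1% of sites from 1 to 10 kb of a start and 68.8% beyond 200 kb, against 49.7% and 50.5% above 0.

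**Figure D1:**
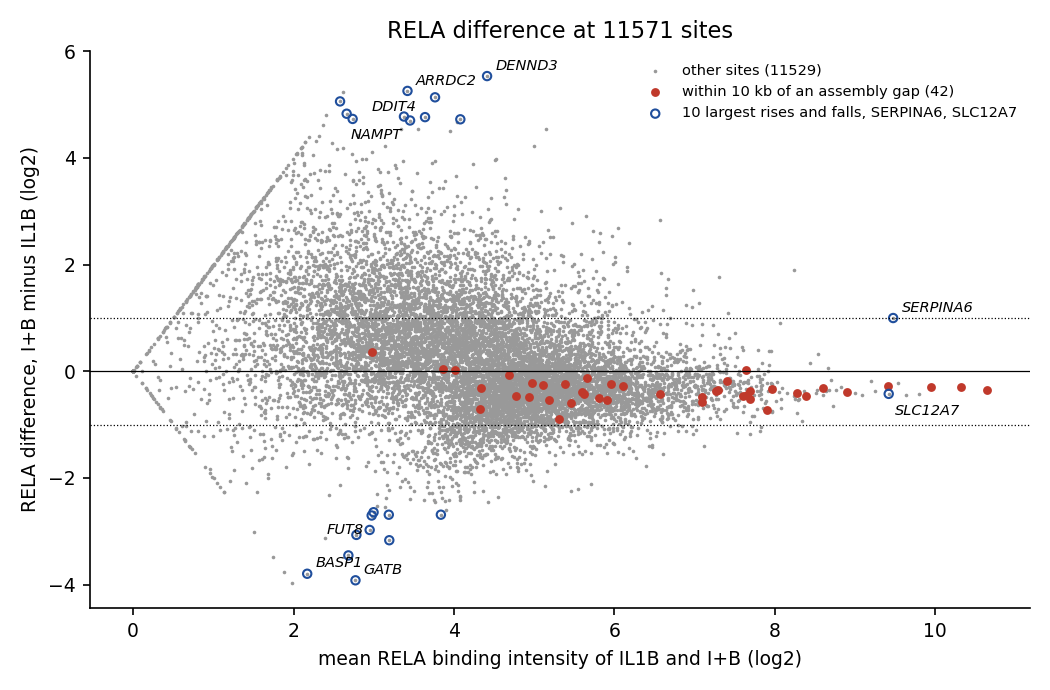
RELA difference (IL-1β plus budesonide minus IL-1β, log2; vertical axis) against the mean RELA binding intensity of both treatments (log2; horizontal axis) at 11571 sites; each point is 1 site, red points are the 42 sites near an assembly gap, and dotted lines mark differences of 1 and -1. Strong sites and gap sites lie below 0, around medians of -0.29 and -0.38, while most differences of 1 or more lie at sites of mean intensity below 5.

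Of the 10 sites of highest mean RELA intensity, 8 carried GR intensities above 9 with each treatment and lay within 188 kb of an assembly gap. Examples were 2 sites 232 and 233 kb downstream of the SHCBP1 start, at 10.82 and 10.48 with IL-1β and 10.47 and 10.17 with both treatments. Tandem repeats, arrays of copies of a short unit, made up 4 of these 8 sites and both of the others, which held 3 and 2 κB matches in the stretches shown here. At the SERPINA6 site, 22.6 kb upstream of the gene for corticosteroid-binding globulin, 92.7% of bases equalled the base 56 bp further on. RELA intensity there was 8.98 with IL-1β and 9.97 with both treatments, a difference of 1.00, and GR intensity was 2.76 with budesonide and 8.92 with both treatments. At the SLC12A7 site, in an intron of this potassium-chloride cotransporter gene, the repeat unit was 30 bp, RELA intensity was 9.63 and 9.21, a difference of -0.42, and GR intensity was 3.68 and 5.88. Overlapping or adjoining κB matches appear as longer capital runs.
SERPINA6 (chr14:94346108-94346207): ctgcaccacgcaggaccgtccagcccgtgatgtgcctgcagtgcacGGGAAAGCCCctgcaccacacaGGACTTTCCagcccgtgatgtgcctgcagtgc
SLC12A7 (chr5:1082217-1082316): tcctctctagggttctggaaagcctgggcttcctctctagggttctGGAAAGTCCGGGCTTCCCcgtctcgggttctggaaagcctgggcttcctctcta

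GR intensity and the RELA difference moved together across sites, in a table that both factors shaped. Of 2388 sites of mean RELA intensity up to 3, only 21 had GR intensity with budesonide up to 2, and the median RELA intensity with IL-1β was 5.04 at GR 0 and 3.60 at GR over 6. The bins of GR therefore also differ in the IL-1β term of the RELA difference. Where GR intensity with budesonide was 0, 18.8% of 234 sites had more RELA with the cotreatment (95% Wilson interval 14.3 to 24.3, counting error only), and the median RELA difference was -0.55. The share was 21.6% of 1197 sites above 0 and up to 2, 31.9% of 3020 sites from 2 to 4, 64.6% of 5332 sites from 4 to 6 and 80.0% of 1788 sites over 6 (interval 78.1 to 81.8). The median RELA difference over these bins was -0.45, -0.32, 0.33 and 0.89, and that of the bin from 2 to 4 turned to 0.06 with the zero at the gap sites. In the bin over 6, 820 sites (45.9%) were higher by 1 or more and 15 lower. In the bin at 0 the counts were 5 and 53. With GR intensity taken from the cotreatment the median RELA difference ran from -0.77 at 0 to 0.92 over 6. Spearman's rho between the RELA difference and GR intensity with budesonide was 0.47 over 11571 sites, a description across sites that share libraries and local chromatin.

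**Figure D2:**
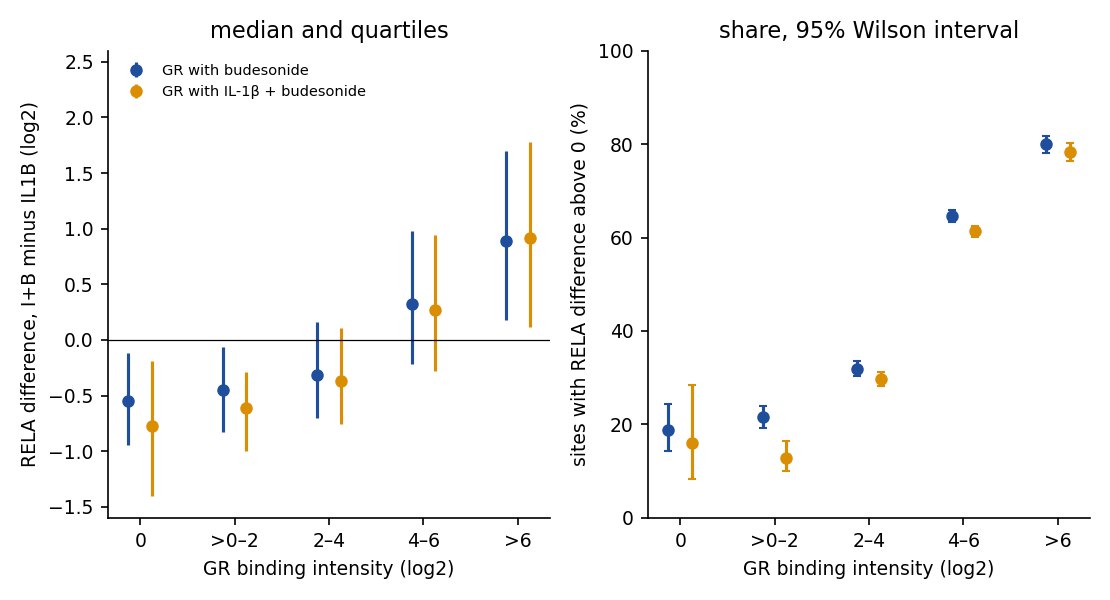
RELA difference by bin of GR binding intensity (log2; horizontal axes) with budesonide (blue) and with IL-1β plus budesonide (orange). Left, points are medians and bars the quartiles over sites; right, points are the share of sites with a RELA difference above 0 (%) and bars 95% Wilson intervals. The share climbs from 18.8% at GR 0 to 80.0% at GR over 6 with budesonide.

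The relation with GR was also seen among sites of like RELA intensity, but its size depended on that intensity. Among sites of mean RELA intensity from 4 to 5, 20.9% of 688 sites with GR up to 2 and 91.5% of 448 sites with GR over 6 were higher, with median RELA differences of -0.52 and 1.01. Among sites of mean intensity from 5 to 6 the shares were 20.5% and 68.5%. Among the strongest sites, over 6, they were 12.0% and 34.5%, and the median was below 0 also with GR over 6, at -0.20. At mean intensities up to 3, where 21 sites had GR up to 2, the shares were 66.7% and 88.9%.

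GR binding itself split the sites into 4 classes by an intensity of 4. At 6018 sites with GR at least 4 in both treatments, the median RELA difference was 0.51. Of these sites, 1917 (31.9%, against 21.4% of all sites) were higher and 2.73% (against 7.55%) lower by 1 or more. At 1877 sites that reached 4 for GR only with IL-1β plus budesonide, RELA was strong already with IL-1β, at a median of 5.24, and the median RELA difference was -0.05. By 1 or more, 17.5% of them were higher and 6.13% lower. A κB match was present at 60.1% of these sites and a GRE at 5.70%. At 1102 sites where GR reached 4 only with budesonide alone, the median was 0.14, with 18.0% higher and 6.99% lower by 1 or more. At 2574 sites below 4 in both, 14.6% were higher, 518 (20.1%) were lower by 1 or more and the median was -0.54. A κB match was present at 61.4% of these 2574 sites, close to the 60.1% above, and a GRE at 0.78%. With GR at least 4 in both treatments these shares were 11.7% and 18.3%. Where GR reached 4 only with budesonide alone they were 3.09% and 18.3%.

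By distance to the gene start the share of higher sites varied less than by GR intensity. At 399 sites up to 1 kb from a start, 40.6% had more RELA with the cotreatment (interval 35.9 to 45.5) and the median RELA difference was -0.15, or 0.22 with the zero at the gap sites. The share was 49.7% of 1232 sites from 1 to 10 kb, 55.0% of 3423 sites from 10 to 50 kb, 55.2% of 4177 sites from 50 to 200 kb and 50.5% of 2340 sites beyond 200 kb. Median RELA intensity with IL-1β, a term of the difference, was 5.60 up to 1 kb. Over the farther bins, in the same order, it was 4.58, 4.25, 4.11 and 4.20. Distance bins were not matched for this intensity. Sites higher by 1 or more made up 13.0% of those up to 1 kb and 23.0% of those from 50 to 200 kb, and sites lower by 1 or more made up 5.01% and 7.47%. At the 170 sites that overlap a start, 38.8% were higher. Within a bin of GR intensity, with GR over 6, the share ran from 68.5% of 359 sites beyond 200 kb to 85.0% of 193 sites from 1 to 10 kb, with 77.8% of 45 sites up to 1 kb. With GR up to 2, it ran from 16.2% of 74 sites up to 1 kb to 22.3% of 539 sites from 50 to 200 kb. Among the 8006 sites with RELA of at least 4 in 1 treatment, fewer sites were higher in every bin, from 35.0% up to 1 kb to 46.9% from 50 to 200 kb.

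By annotation, 278 of 490 sites centred on an exon (56.7%), 2982 of 5439 intronic sites (54.8%) and 2883 of 5642 intergenic sites (51.1%) were higher. The median distance to a start was 66.9 kb for sites higher by 1 or more and 71.3 kb for sites lower by 1 or more. The gene assigned to a site is the nearest in the table and need not be its target.

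Sites with more and with less RELA differed in sequence. They also differed in median RELA intensity with IL-1β, at 2.35 for sites higher and 4.98 for sites lower by 1 or more. A GRE match was present at 3.78% of 874 sites lower by 1 or more (interval 2.70 to 5.26), 9.33% of 4845 sites within 0.5 of 0, 22.9% of 1691 sites higher by 1 to 2 and 23.7% of 784 sites higher by 2 or more. The share at 2000 bp from the same sites was 0.77% to 1.60%. At the 41 sites higher by 4 or more it was 34.1% (interval 21.6 to 49.5). κB matches were present at 34.1% of sites lower by 1 or more, 42.6% of sites lower by 0.5 to 1 and 34.0% of sites within 0.5 of 0. They were less frequent among sites higher by 1 or more, at 17.9% (interval 16.4 to 19.4). The share was 29.8% of all sites and 5.19% at 2000 bp. AP-1 matches, which bind FOS and JUN family dimers, were present at 29.7% of sites lower by 1 or more and 16.8% of sites higher by 2 or more, with 21.0% over all sites and 6.40% at 2000 bp.

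The C/EBP sequence TTGCNNAA was present at 22.3% of sites lower by 1 or more, 17.5% of sites higher by 1 or more and 14.8% of sites higher by 2 or more (interval 12.5 to 17.5). The forkhead and TEAD elements varied less over the same groups, with the forkhead sequence TGTTTAC at 10.3%, 8.57% and 9.95%, and the TEAD sequence GGAATG at 18.8%, 17.3% and 16.2%. Over all sites these elements were at 20.2%, 8.81% and 17.9%.

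**Figure D3:**
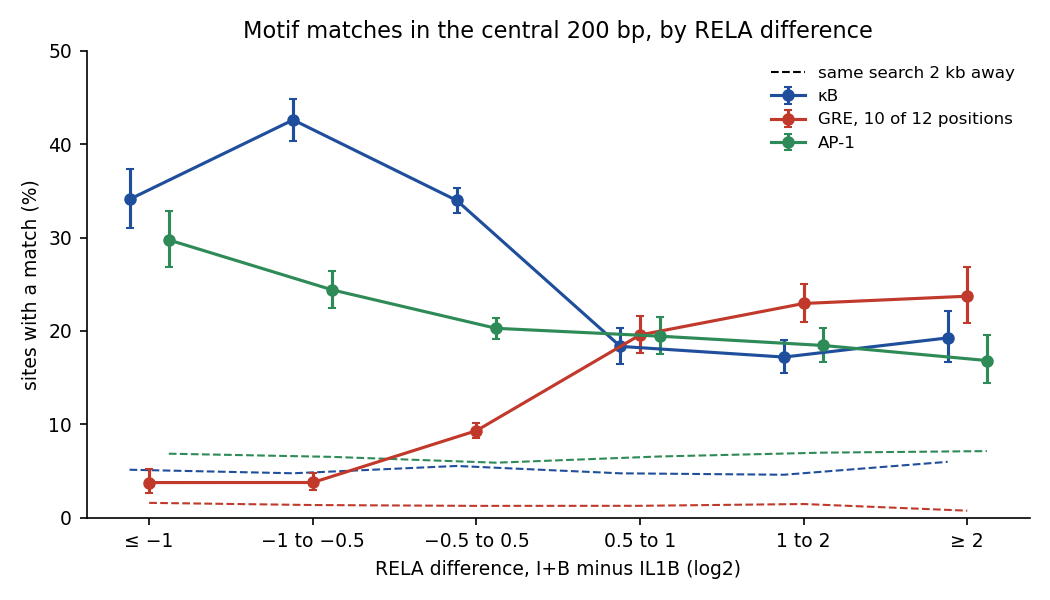
Share of sites (%; vertical axis) with a κB, GRE or AP-1 match in the central 200 bp by RELA difference (log2; horizontal axis), with 95% Wilson intervals for counting error; dashed lines give the same search 2 kb away. GRE matches run from 3.78% to 23.7% as the RELA difference increases, AP-1 matches run from 29.7% to 16.8%, and κB matches are highest, at 42.6%, at sites lower by 0.5 to 1 and lie between 17.2% and 19.3% at sites higher by 0.5 or more.

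Of the 4 combinations of κB match and GRE, sites with both had the highest median. At 190 sites with a κB match and a GRE, 90.0% were higher (interval 84.9 to 93.5), the median RELA difference was 1.01, and 96 sites were higher and 2 lower by 1 or more. At 3258 sites with a κB match alone, 35.0% were higher and the median was -0.26, or 0.12 with the zero at the gap sites. At 1242 sites with a GRE alone the share was 78.4% and the median 0.73, and at 6881 sites with neither they were 56.1% and 0.15. Within κB sites of GR intensity up to 4 with budesonide, the median was 0.89 at 73 sites with a GRE and -0.33 at 2636 without. Median RELA intensity with IL-1β, a term of the difference, was 3.73 and 5.17 in these 2 groups. It was 3.26 with both elements, 5.15 with κB alone, 2.64 with a GRE alone and 3.90 with neither. Motif classes were not matched for this intensity.

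The 10 largest positive RELA differences, among sites above 0 in each treatment and at least 4 in 1 of them, ran from 4.70 to 5.54. At the DDIT4 site, 24.7 kb upstream of this gene for a stress-induced inhibitor of mTORC1, RELA intensity was 1.26 with IL-1β and 6.02 with both treatments, with GR at 8.93 and 8.95. The GRE of this site, shown above, matched 12 of 12 positions. DDIT4 had 8 sites, with 3 higher and 1 lower by 1 or more. At its strongest, 23.2 kb downstream, RELA was 6.26 and 5.80. At the NAMPT site, 132 kb upstream of the gene for an enzyme of NAD salvage, RELA was 1.10 and 5.80, with GR at 6.37 and 6.74 and 11 positions matched. At the ARRDC2 site, 19.2 kb downstream of the start of this arrestin-domain gene, RELA was 0.79 and 6.05, with GR at 8.39 and 8.57. The ABHD2 site, in an intron 10.8 kb from the start, had RELA at 1.72 and 6.44 and GR at 7.02 and 7.72. At the DENND3 site, 5.53 kb upstream of this gene for a Rab exchange factor, RELA was 1.64 and 7.18 while GR was 4.35 and 8.11. The remaining sites belonged to GRAMD4, RTTN, DDR1, DIP2C and JADE1, with RELA from 0.05 to 1.20 with IL-1β and 5.08 to 6.33 with both treatments. GR intensity with budesonide was above 4 at 9 of the 10 sites, the exception being DIP2C at 2.14, where it was 6.08 with both treatments. For comparison, GR intensity with budesonide was at least 4 at 61.5% of all sites and 85.5% of sites higher by 1 or more.

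The 10 largest negative RELA differences ran from -3.92 to -2.64. These sites had modest RELA with IL-1β, from 4.07 to 5.18, and 0.27 to 2.49 with both treatments. Because the sites had to reach 4 in 1 treatment and were picked for a fall, at least 4 with IL-1β was set by the choice. At the GATB site, 345 kb upstream of a gene for a mitochondrial amidotransferase subunit, RELA was 4.73 with IL-1β and 0.81 with both treatments. At the BASP1 site, in an intron 62.3 kb from the start, it was 4.07 and 0.27. The CAMK2N1 site, 41.7 kb downstream of the start of a CaMKII inhibitor gene, had 4.32 and 1.25. The site assigned to AHR, the aryl hydrocarbon receptor gene, lay 107 kb downstream of its start, in an intron of another gene. Its values were 5.18 and 2.49. At 8.94 kb upstream of BDKRB1, the bradykinin B1 receptor gene, RELA was 4.32 and 1.68. Further sites were assigned to PFDN4 and FUT8 and, on chromosome 13, to no gene. GR intensity with budesonide was 4.26 at the AHR site and at 0 at the CAMK2N1 and PFDN4 sites.

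The genes of the NF-κB pathway and its targets were described by 6 lists of 67 genes, of which 59 had 195 sites. The RELA difference was above 0 at 74 sites (37.9%, interval 31.4 to 44.9), 1 or more at 29 (14.9%, against 21.4% of all sites) and -1 or less at 12 (6.15%, against 7.55%). The median was -0.23, close to -0.24 for all sites of mean RELA intensity from 5 to 6. The median RELA intensity of these sites was 5.66 with IL-1β and 5.46 with both treatments. At the strongest site of each of the 59 genes, the median RELA difference was -0.26, 5 sites were higher and 1 lower by 1 or more. The pooled median thus lay near that of the 1000 sites of highest mean RELA intensity, at -0.29, while the single lists ran from -0.43 to 0.19. With the zero at the gap sites, the median of the 6 lists turned to 0.14 and 60.5% of the sites were above it, so the direction of the pooled median depends on the choice of zero.

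IκB proteins and NF-κB subunits had 31 sites in 8 of 10 genes, with a median RELA difference of -0.40, or -0.02 with the zero at the gap sites. Of these sites, 4 were higher (12.9%, against 21.4% of all sites) and 0 lower (against 7.55%) by 1 or more. The NFKB2 site, 185 bp from the start of the gene for the p100 precursor, had RELA at 9.28 with IL-1β and 9.10 with both treatments. The site overlapping the start of NFKB1, which encodes p105, had 7.80 and 7.15, while GR there was 0.01 with budesonide and 4.67 with both treatments. NFKBIA, the gene for IκBα, had 9 sites with differences from -0.92 to 1.88. Its strongest site, 529 bp downstream of the start, had 8.38 and 8.70, and the site 13.5 kb downstream had 2.51 and 4.39 with GR at 6.45 and 6.31. NFKBIZ had 7 sites, from -0.67 at its strongest, 21.2 kb downstream, to 2.58 at 263 kb.

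The brakes of the pathway had 37 sites in 9 of 10 genes, with a median of 0.19, 9 higher (24.3%) and 2 lower (5.41%) by 1 or more, shares close to the 21.4% and 7.55% of all sites. TNFAIP3, the gene for the ubiquitin-editing enzyme A20, had 16 sites. The site overlapping its start had RELA at 7.63 and 7.24. A site 55.4 kb upstream had 6.79 and 7.66, 1 at 90.0 kb upstream had 1.44 and 4.33, and 1 at 18.1 kb upstream had 5.35 and 3.74. ZFP36, which encodes the mRNA-destabilizing protein tristetraprolin, had a site 3.70 kb upstream with 8.72 and 8.30. A single site assigned to OTULIN, 75.3 kb upstream of it and in an intron of OTULINL, whose start is nearer, at 7.20 kb, had 2.15 and 5.21, with GR at 7.64 and 7.45. OTULIN encodes a deubiquitinase for linear ubiquitin chains, and the site held a GRE with 10 positions matched.
OTULIN (chr5:14589137-14589236): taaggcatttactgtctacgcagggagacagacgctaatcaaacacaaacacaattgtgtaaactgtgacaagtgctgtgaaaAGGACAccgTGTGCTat

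Chemokine genes had 28 sites in 9 of 10 genes, with a median of -0.26, which turned to 0.11 with the zero at the gap sites. In each direction 2 sites (7.14%) were past 1, against 21.4% of all sites higher and 7.55% lower. CCL20, the ligand of CCR6, had 8.08 and 7.79 at its start, 5.64 and 6.44 at 4.39 kb and 3.57 and 5.36 at 25.9 kb downstream, while its remaining site was at -0.63. CXCL1 had 7.23 and 7.16 at its start, CCL2 7.92 and 7.72 at 2.37 kb upstream, and CXCL3 6.37 and 6.17 at its start and 3.80 and 5.54 at 15.1 kb downstream. CXCL8, the gene for the neutrophil chemokine IL-8, had 7 sites, with 7.77 and 7.82 at its start. Its sites 14.2 and 9.79 kb upstream had 6.75 and 5.51 and 3.84 and 2.54, and these were the 2 of the list lower by 1 or more. The single CXCL10 site, at its start, had 5.09 and 5.48. At the starts of CCL20, CXCL1, CXCL3, CXCL8 and CXCL10 the RELA difference thus ran from -0.29 to 0.39, and sites farther out lay in both directions.

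Cytokine and receptor genes had 34 sites in 12 of 14 genes, with a median of -0.37, or 0.01 with the zero at the gap sites. In each direction 3 sites (8.82%) were past 1, against 21.4% of all sites higher and 7.55% lower. LIF, an IL-6 family cytokine, had 11 sites with differences from -0.88 to 0.12, of which 1 was above 0. At its strongest, 50.1 kb downstream, RELA was 7.63 and 6.75. CSF1, the macrophage growth factor gene, had 4 sites from -0.82 to -0.26 and 1 at 17.7 kb downstream with 4.25 and 6.42. The strongest IL1R1 site, 15.7 kb upstream of the gene for the IL-1 receptor, had 1.30 and 4.28, with GR at 7.55 and 7.11. IL15 had 1 site with 4.71 and 6.31, and both IL1B sites were lower, at -1.49 and -0.63.

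Adhesion and effector genes had 26 sites in 11 of 12 genes, and 3 of them were higher (11.5%, against 53.1% of all sites). The median was -0.43, the lowest of the 6 lists and -0.05 with the zero at the gap sites. By 1 or more, 1 site was higher (3.85%, against 21.4% of all sites). In the other direction 2 were lower by 1 or more (7.69%), close to the 7.55% of all sites. PTGS2, the gene for cyclooxygenase-2, had 7 sites, all lower, from -2.21 to -0.21. The site 61.6 kb downstream had 6.64 and 4.44, and the strongest, 35.4 kb upstream, 8.80 and 7.87. PTGES, the prostaglandin E synthase gene, had 6.67 and 5.14 at 24.1 kb upstream. The 4 ICAM1 sites were lower, from -0.86 to -0.12, with 7.36 and 7.03 at 0.83 kb upstream. The 3 higher sites were those of SAA1, an acute phase protein gene, with 3.52 and 4.85 at its start, of the complement gene C3, at 0.16, and 1 of 3 sites of the superoxide dismutase gene SOD2, at 0.36.

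Interferon regulatory and survival genes had 39 sites in 10 of 11 genes, with a median of 0.08, 10 higher (25.6%) and 3 lower (7.69%) by 1 or more, again close to all sites. MCL1, an antiapoptotic BCL2 family gene, had 1 site, 11.3 kb downstream, with 2.71 and 4.88, where GR was 7.31 and 7.05. IRF1 had 7.52 and 7.24 at 6.13 kb upstream and 2.70 and 4.28 at 14.6 kb upstream. BCL2A1, another antiapoptotic member, had 3 sites from -2.36 to 1.31.

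Glucocorticoid target genes had a larger share of sites higher in RELA than any of the 6 NF-κB lists. The list of 30 genes had 165 sites in 29 genes, of which 116 (70.3%, interval 62.9 to 76.7) were higher. The RELA difference was 1 or more at 69 sites (41.8%, against 21.4% of all sites) and -1 or less at 6 (3.64%), with a median of 0.75. GR intensity with budesonide had a median of 5.38 at these sites, and over all sites of GR from 4 to 6 and over 6 the median RELA differences were 0.33 and 0.89. FKBP5, the gene for a cochaperone that restrains GR, had 7 sites, all higher, from 0.04 to 3.27. At 5.70 kb downstream of its start RELA was 2.51 and 5.78, with GR at 8.96 with each treatment. ZBTB16, a zinc finger repressor gene, had 7 sites, with RELA at 1.70 and 6.20 at 120 kb downstream and differences from -0.16 to 4.50. DUSP1, which encodes a phosphatase of MAP kinases, had 8 sites, with 1.38 and 5.18 at 4.38 kb upstream and 6.37 and 5.55 at 12.7 kb downstream.

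Among other glucocorticoid targets, TSC22D3, the gene for GILZ, had 3 of 4 sites higher, by 1.05 to 1.29. IRS2, an insulin receptor adaptor gene, had 13 of 19 higher and 9 by 1 or more. ANGPTL4, which inhibits lipoprotein lipase, had 1.79 and 5.17 at 7.23 kb upstream. PER1, a clock gene, held GR at 8.65 and 8.97 at 1.84 kb downstream, and RELA there was 4.10 and 5.09. Its sequence is shown because the GRE lies at the centre of the site, with 11 positions matched. Several members of the list had mostly lower values. NR3C1, which encodes GR, had 6 of 7 sites lower, from -0.98 to -0.09, and 1 higher, at 0.83. KLF9 had 3 of 4 and GADD45A 2 of 3 sites lower, and the single sites of GADD45B, CEBPD and CRISPLD2 were at -0.84, -0.55 and -0.40.
PER1 (chr17:8154419-8154518): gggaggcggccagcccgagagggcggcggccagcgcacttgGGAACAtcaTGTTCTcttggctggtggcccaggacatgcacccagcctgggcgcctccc

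Of the remaining lists, lung epithelial genes had 32 sites in 7 of 13 genes, 24 of them higher (75%, against 53.1% of all sites) and 6 by 1 or more (18.8%, against 21.4%), with a median of 0.30. SFTPB, the surfactant protein B gene, had 3.08 and 6.21 at 39.9 kb upstream, with GR at 8.80 and 8.51. AP-1 genes had 12 sites in 4 of 10 genes, 6 of them higher, and a median of 0.06. Of the 10 heat shock genes used for comparison, 2 had sites, 3 in all, with differences from 0.15 to 1.12. Of 12 genes of other tissues, 1 had sites, 4 in all, of which 0 were higher and 2 lower by 1 or more, with a median of -1.04.

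**Figure D4:**
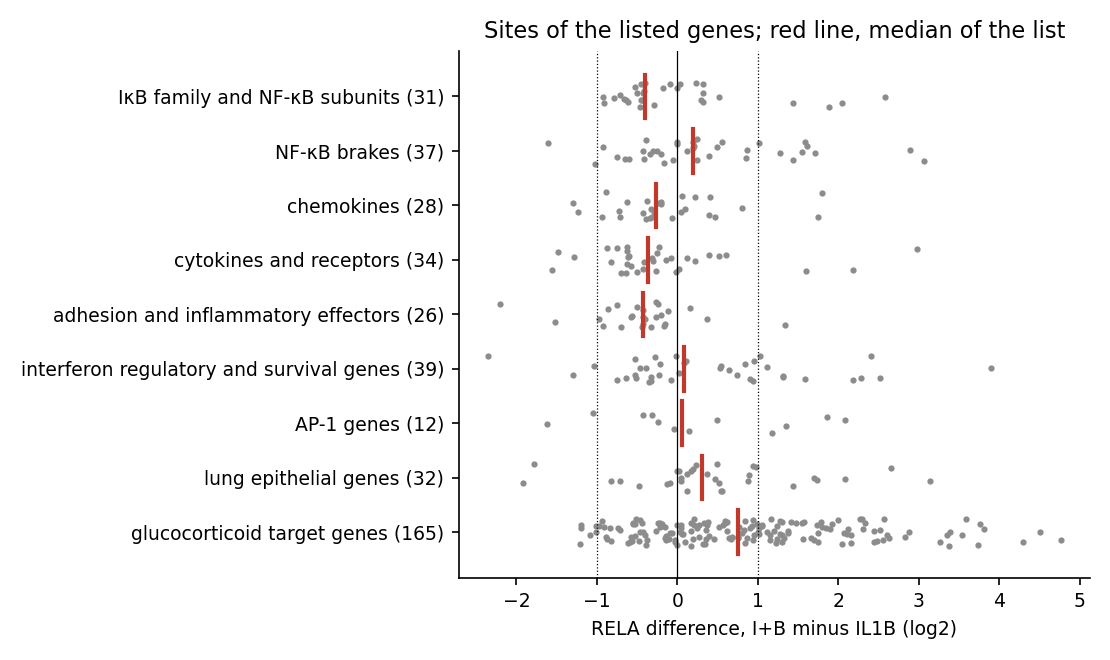
RELA difference (log2; horizontal axis) at each site of the listed genes; each point is 1 site, red bars are list medians, numbers in parentheses are sites, and the vertical scatter within a row has no meaning. Glucocorticoid target genes have a median of 0.75, and the adhesion and effector genes -0.43.

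Some genes had sites that differed in direction. Of 4714 genes named in the table, 2362 had 2 or more sites, and 248 of these (10.5%) had at least 1 site higher and at least 1 lower by 1 or more, or 135 with the zero at the gap sites. Beside TNFAIP3 these included IRS2, where RELA was 1.21 with IL-1β and 4.94 with both treatments at 534 kb downstream, and 2.99 and 1.91 at 42.5 kb downstream. SGK1, a kinase gene induced by glucocorticoids, had 5 sites higher and 2 lower by 1 or more among 9, and its sites with GR at 4 or more with budesonide were all higher. BASP1 had 14 sites, 8 of them lower by 1 or more, and 1 at 150 kb downstream with 1.60 and 4.16, the only one of the 14 with GR over 5 with budesonide. Genes outside the naming rule and picked after their values were seen were IER3, an early response gene, whose 3 sites were lower, from -1.71 to -1.12, and PTPN1, a phosphatase gene, with 6 of 12 sites higher by 1 or more and 0 lower.

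**Figure D5:**
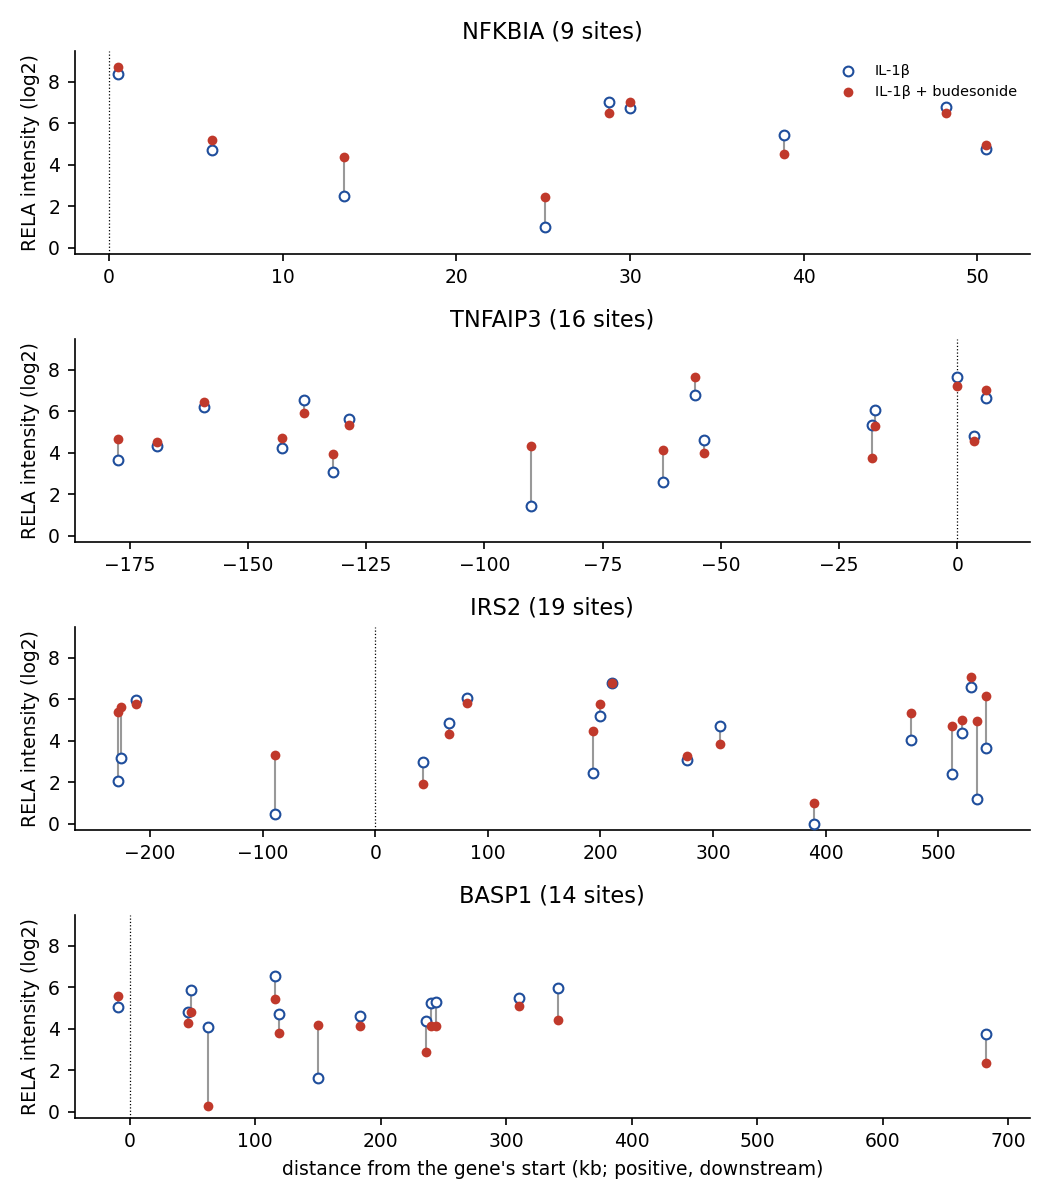
RELA binding intensity (log2; vertical axes) with IL-1β (open circles) and with IL-1β plus budesonide (red) at each site of NFKBIA, TNFAIP3, IRS2 and BASP1, by distance from the gene's start (kb; horizontal axes); grey lines join the values of 1 site. Differences run from -0.92 to 1.88 at NFKBIA, -1.61 to 2.89 at TNFAIP3, -1.08 to 3.73 at IRS2 and -3.80 to 2.56 at BASP1. The largest positive differences are at sites weak with IL-1β, which is partly built in because IL-1β intensity is a term of the difference.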

How the data were processed

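RELA and GR ChIP-seq libraries of A549 cells were processed by the authors. The submitters' processing notes name bcl2fastq, FastQC 0.10.1, Bowtie2 2.4.4, SAMtools, MACS2 2.2.7.1 and DiffBind 3.2, with GRCh38. The deposited table holds binding intensities, taken as log2 values, with 1 value per site and treatment over both libraries and 46284 lines in all. Scaling between libraries and depth are not given in the sources used here. To check the scale, the difference of the authors' fold columns was set against the difference of intensities, and the slope was 1.03 over 5448 sites. The authors' columns of comparisons with untreated cells (fold, FDR, significance, behavior and trend) were otherwise not used. The deposited distance to the gene start, from the edge of the site, was used as given. Per the labels, RELA ChIP was also sequenced from untreated cells and from cells given budesonide alone. RELA intensities of these 2 conditions were not analysed here, so RELA signal with budesonide alone is not described.

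RELA lines of IL-1β plus budesonide and of IL-1β were joined by site name and subtracted. Sites were binned by distance (1, 10, 50 and 200 kb), GR intensity (0, 2, 4 and 6) and motif matches in the central 200 bp of the hg38 reference, with the sequence 2000 bp away as background. The GENCODE 44 annotation gave exon and intron labels. In the table, 217 sites have no named gene, and the named gene has the nearest protein-coding start at 71.6% of sites. Tandem repeats were called after the data were seen, where at least 70% of bases equalled the base 10 to 100 bp further on. Wilson intervals (95%) cover counting error over sites only. Named sites were the 10 largest RELA differences in each direction among sites above 0 in both treatments and at least 4 in 1, the 10 of highest mean intensity and the strongest site of each of the listed genes, and other sites of listed genes were added. Of these, 2 sites are not reported here. The sites and lists were chosen with earlier results of these data known. Alternatives covered the size and zero of the difference, the floor, the gene annotation and the motif search. Joins, counts and motif search were tested on simulated data. Tables were handled with pandas 2.3.3 in Python 3.11.15, sequences with pysam 0.24.0, intervals with SciPy 1.17.1 and figures with Matplotlib 3.10.9.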

Additional observations from a re-analysis of the deposited data

How the results depend on the processing

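No paired analysis was possible because the deposited table gives 1 value per site and treatment and none per library, and for the same reason leaving out each library was not run. With a size of 0.5 in place of 1, 4028 sites were higher and 2698 lower, and with 2 they were 784 and 71. The count of lower sites moved with the zero, to 410 with the zero at the 1000 sites of highest mean RELA intensity and 329 at the gap sites, an alternative added after the data were seen, while higher sites numbered 3345 and 3610. Among sites of at least 4 in 1 treatment, 1401 were higher and 728 lower. In those sites the share higher was 35.0% up to 1 kb from a start, 42.2% from 1 to 10 kb, 46.5% from 10 to 50 kb, 46.9% from 50 to 200 kb and 38.9% beyond, so that the share above 0 was lower in every bin than over all sites. With GR intensity from the cotreatment, the share was 12.9% above 0 to 2, 29.7% from 2 to 4 and 61.4% from 4 to 6. Over the whole site, 25.3% of sites higher by 1 or more held a κB match and 25.1% a GRE, and 39.7% of those lower held a κB match. With 11 of 12 GRE positions the shares were 5.58% of higher and 0.80% of lower sites. Genes with sites past the size in both directions numbered 753 at 0.5, 11 at 2 and 135 with the zero at the gap sites, all added after the data were seen. Of 74 alternative values, 50 stayed within 1.5 times the reported count or within the reported interval, and 24 did not. The RELA difference of a single site has no error, and sites near 0 depend most on the floor.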
